A study of Mus musculus with 27 samples.

Results

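The question was which acetylated sites of adult mouse blood progenitors carry the enhancer mark H3K4me1 in stem cells before birth, and which do not. The members were the 63108 H3K27ac peaks of adult hematopoietic progenitor cells (HPC), out of 901169 peaks in the 8 lists of the series. A peak was called marked when it overlapped a peak of the fetal hematopoietic stem cell (HSC) H3K4me1 list by at least 1 bp, and unmarked otherwise. By this rule 47313 peaks (75.0%, 95% Wilson interval 74.6 to 75.3) were marked and 15795 (25.0%) were unmarked.

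The fetal HSC H3K4me1 list pooled 3 libraries of cells taken before birth, at E16.5, and the adult HPC H3K27ac list pooled 3 libraries of cells taken at 8 weeks of age. All mice were on the B6 background, and no genetic change or treatment is named in the labels. Cells were sorted and then fixed, and the chromatin bound by each antibody was tagged with the Tn5 transposase, a method called ChIPmentation. The sort markers, the organ and the sex of the animals were not given in the sources used here, so HSC and HPC are the submitters' names.

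H3K4me1 is placed at enhancers and on the flanks of promoters, often before the gene nearby is used. H3K27ac is added at enhancers and promoters that are in use, so a site with H3K4me1 alone is usually called primed. Blood stem cells give rise to progenitors that go on to myeloid, erythroid, megakaryocyte and lymphoid cells, and the stem cell pool itself passes from the fetal liver to the bone marrow around birth.

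Each group had 1 pooled list, so no spread between replicates could be measured and no test was run. Intervals cover counting error only, and neighbouring peaks are not independent of each other. The fetal HSC list held the most peaks of the series, with 231188 peaks over 176 Mb, against 126502 to 177310 peaks in the 3 other H3K4me1 lists. By length covered it was not the longest, since fetal HPC H3K4me1 covered 200 Mb, adult HPC H3K4me1 176 Mb and adult HSC H3K4me1 155 Mb. A site without a called peak may still hold the mark. By promoters, the adult HPC H3K27ac list had a peak within 1 kb of a start at 21 of 30 myeloid genes, 23 of 24 HSC genes, 16 of 23 lymphoid genes and 14 of 22 erythroid and megakaryocyte genes, against 0 of 22 silent developmental regulators. Markers of other cells were acetylated at promoters at 2 of 12 hepatocyte genes, 6 of 10 endothelial genes, 5 of 10 B cell genes, 6 of 12 T and NK cell genes, 1 of 10 macrophage genes and 2 of 10 stromal genes.

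Promoters of both kinds are shown first, because the mark was absent from the peaks of CpG-poor and CpG-rich promoters alike. Both kinds were picked with their values known. The first set holds unmarked promoters of myeloid and inflammatory genes, each given as the 250 bases before the start from the RefSeq table for GRCm38.p6, with CpG pairs in capitals. Elane, neutrophil elastase (chr10:79886062-79886311, plus strand), Il1b, the cytokine interleukin 1 beta (chr2:129371140-129371389, minus strand), and Trem1, a receptor that amplifies inflammation in myeloid cells (chr17:48232489-48232738, plus strand), hold 3, 2 and 2 CpG pairs.
Elane: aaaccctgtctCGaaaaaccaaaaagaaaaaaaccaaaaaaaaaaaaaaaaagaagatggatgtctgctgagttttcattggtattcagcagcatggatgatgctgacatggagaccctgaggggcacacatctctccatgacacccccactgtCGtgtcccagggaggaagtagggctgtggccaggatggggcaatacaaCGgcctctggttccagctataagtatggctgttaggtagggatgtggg
Il1b: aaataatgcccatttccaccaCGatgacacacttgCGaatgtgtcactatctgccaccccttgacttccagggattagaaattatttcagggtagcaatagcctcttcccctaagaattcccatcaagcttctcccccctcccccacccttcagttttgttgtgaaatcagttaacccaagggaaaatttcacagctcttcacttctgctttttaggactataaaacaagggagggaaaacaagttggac
Trem1: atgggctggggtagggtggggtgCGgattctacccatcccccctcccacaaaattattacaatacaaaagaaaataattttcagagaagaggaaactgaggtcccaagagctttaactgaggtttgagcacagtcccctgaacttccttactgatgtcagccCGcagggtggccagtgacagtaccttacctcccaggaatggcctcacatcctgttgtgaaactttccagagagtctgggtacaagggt

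The second set holds unmarked promoters rich in CpG pairs, with 15 in Jun, an AP-1 transcription factor (chr4:95052223-95052472, minus strand), and 16 in Taf1, a subunit of the general factor TFIID on the X chromosome (chrX:101532485-101532734, plus strand).
Jun: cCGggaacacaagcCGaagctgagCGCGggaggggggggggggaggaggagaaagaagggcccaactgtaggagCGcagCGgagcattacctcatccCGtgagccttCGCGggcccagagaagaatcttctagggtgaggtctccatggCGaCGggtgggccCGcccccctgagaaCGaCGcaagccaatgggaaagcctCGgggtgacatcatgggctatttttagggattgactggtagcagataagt
Taf1: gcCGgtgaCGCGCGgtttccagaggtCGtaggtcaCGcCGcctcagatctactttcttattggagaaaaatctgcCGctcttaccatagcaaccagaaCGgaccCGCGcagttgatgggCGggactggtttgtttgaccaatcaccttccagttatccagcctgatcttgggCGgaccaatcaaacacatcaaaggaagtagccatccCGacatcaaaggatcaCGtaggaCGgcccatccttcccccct

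The third set holds marked promoters. Cebpa, the master factor of the granulocyte and monocyte fate (chr7:35119043-35119292, plus strand), holds 22 CpG pairs, and a start of Runx1, a core transcription factor of blood (chr16:92826075-92826324, minus strand), holds 2.
Cebpa: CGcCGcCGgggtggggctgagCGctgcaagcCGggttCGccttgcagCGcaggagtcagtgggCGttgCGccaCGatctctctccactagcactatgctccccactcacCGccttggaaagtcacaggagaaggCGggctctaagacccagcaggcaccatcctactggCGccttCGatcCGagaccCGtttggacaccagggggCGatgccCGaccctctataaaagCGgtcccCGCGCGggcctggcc
Runx1: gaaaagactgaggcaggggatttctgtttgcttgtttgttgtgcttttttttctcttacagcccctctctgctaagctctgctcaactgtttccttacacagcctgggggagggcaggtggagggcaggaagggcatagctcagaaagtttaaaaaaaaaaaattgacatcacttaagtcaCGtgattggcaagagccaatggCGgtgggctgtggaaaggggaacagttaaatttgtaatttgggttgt

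Marked and unmarked promoters were close in base composition. In the windows from 250 bases before to 50 after each start, the median GC content was 61.7% over 9787 marked starts and 62.3% over 1030 unmarked starts, with medians of 22 and 20 CpG pairs. The 5 motifs searched for were matched on both strands of these windows. The GC box GGGCGG was in 66.2% of marked and 67.2% of unmarked windows, against 46.2% of all 21262 windows. A C/EBP-type motif, TTNCNNAA, was in 30.4% of marked and 28.3% of unmarked windows, against 37.3% of all, and the PU.1-type GAGGAAGT, found in the Elane window, was in 3.33%, 2.62% and 3.13%. For CCAAT the shares were 37.8% of marked, 37.4% of unmarked and 38.2% of all windows, and for TATAAA 6.08%, 5.53% and 12.6%. A match is a run of letters and not a bound site, and no search was made outside these windows.

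The promoter peaks printed above show how far the mark lay from the unmarked ones. The Elane peak (904 bp, fold 3.33 over background) ended 110 bp from the nearest fetal HSC H3K4me1 peak, the Jun peak (3652 bp, fold 30.5) 90 bp, the Taf1 peak (2344 bp, fold 22.1) 302 bp, the Trem1 peak (1681 bp, fold 4.90) 784 bp and the Il1b peak (227 bp, fold 2.27) 2010 bp. All 5 overlapped H3K4me1 of adult HSC and of adult HPC. The peaks of Elane, Trem1 and Jun also overlapped H3K4me1 of fetal HPC, and those of Il1b and Taf1 did not. Those of Jun and Taf1 were also acetylated in fetal HPC, while those of Elane, Il1b and Trem1 were not. The Cebpa peak (1682 bp, fold 6.81) was marked over 5.71% of its length and the Runx1 peak (6457 bp, fold 14.0) over 63.8%, so a marked call can rest on a short overlap.

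Promoter-near peaks, within 1 kb of a transcription start, were marked more often than distal ones, but the mark lay beside the start and not on it. Of 12291 promoter-near peaks 10441 were marked (84.9%, 84.3 to 85.6), against 36872 of 50817 distal peaks (72.6%, 72.2 to 72.9), a difference of 12.4 percentage points (11.6 to 13.1). The summit of the H3K27ac peak fell inside an H3K4me1 peak at 14.6% of promoter-near peaks, against 60.0% of distal peaks, a difference of -45.4 points (-46.2 to -44.6). Marked promoter-near peaks were covered by H3K4me1 over a median of 38.7% of their length, against 94.2% for marked distal peaks. With 50% of the peak required to be covered, the shares were 26.3% promoter-near and 61.0% distal. The order of promoter-near and distal peaks thus turned with the overlap asked for. It also closed among the strongest 20000 peaks, to -0.947 points.

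Around the starts the 2 marks had different shapes. Of 9658 autosomal starts in marked peaks, 6.41% had fetal HSC H3K4me1 at the start itself, 69.3% had it 1000 bp downstream and 51.5% had it 1000 bp upstream. At 836 autosomal starts in unmarked peaks the shares were 0.00%, 27.3% and 16.4%, and 2000 bp downstream they were 62.4% in marked and 25.6% in unmarked peaks. The choice of peaks used this same mark, so the gap between marked and unmarked starts is a description at every distance and only the shape along the start is read from it. Adult HSC H3K4me1 at 1000 bp downstream was nearer, with 77.5% and 60.9%. The adult acetylation reached 1000 bp downstream at 61.7% of starts in marked peaks and at 21.1% of those in unmarked peaks, and 2000 bp downstream at 15.3% and 4.07%.

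**Figure D1:**
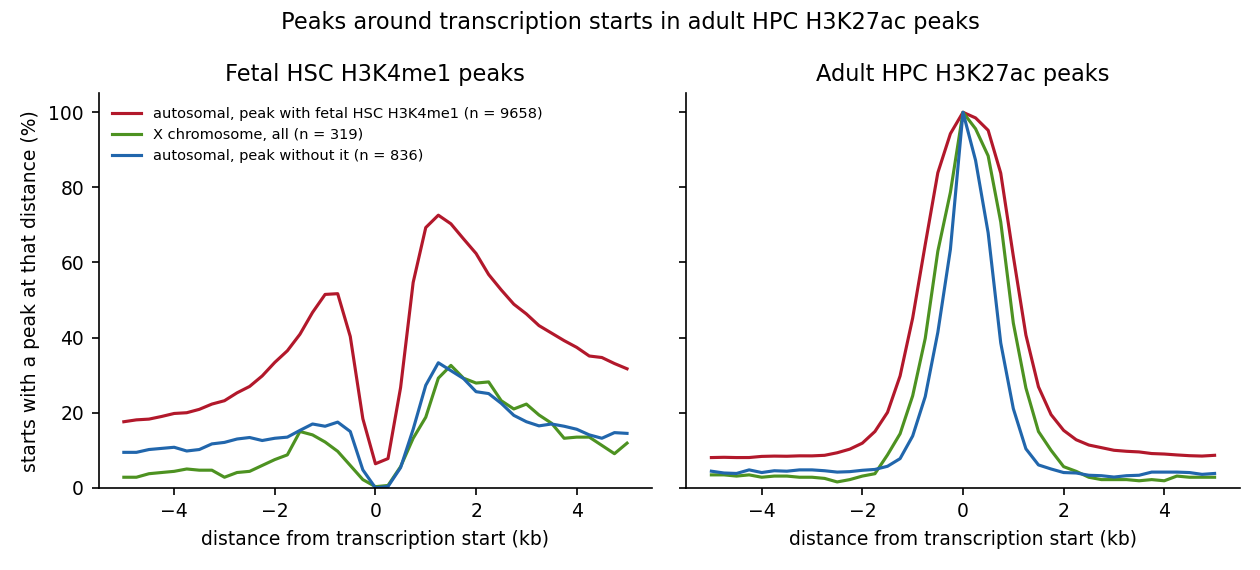
Share of transcription starts with a fetal HSC H3K4me1 peak (left) or an adult HPC H3K27ac peak (right) at each distance from the start, positive downstream; lines stand for autosomal starts in marked peaks, X-chromosome starts in any acetylated peak, and autosomal starts in unmarked peaks. H3K4me1 dips at the start to 6.41% in marked peaks and is highest downstream of it.

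Wider and stronger peaks were marked more often. The peaks were divided at widths of 392, 700 and 1536 bp into quartiles, and 52.4%, 67.2%, 83.7% and 96.7% were marked from the narrowest to the widest quartile. The widest quartile was 44.4 points above the narrowest (43.5 to 45.2). By strength, the -log10 p the authors gave each peak, 94.2% of the strongest quartile and 55.1% of the weakest were marked. The order by width was also seen within strength quartiles. In the weakest quartile, 75.4% of the peaks of 700 to 1536 bp were marked, against 48.2% of the narrowest, and in the third quartile by strength the widest reached 95.1% against 65.8% for the narrowest. The order by strength did not hold throughout within width quartiles. In the strongest quartile 3 of 33 of the narrowest peaks (9.09%) were marked. Peaks of 392 to 700 bp stood at 51.6% there, against 73.7% in the third strength quartile. The widest peaks reached 97.3% in the strongest quartile. Marked peaks had a median width of 944 bp and a median fold of 3.55, against 406 bp and 2.70 for unmarked peaks.

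A wide peak has more bases with which to touch another peak, and the summit does not share that advantage. By summit, the widest and narrowest quartiles of all peaks stood at 47.4% and 45.2%, 2.17 points apart (1.07 to 3.27). This near tie held opposite orders. Distal peaks had their summit in H3K4me1 at 79.3% in the widest quartile, against 45.6% in the narrowest, a difference of 33.7 points (32.5 to 34.9). Promoter-near peaks ran the other way, with 10.5% in the widest quartile against 36.1% in the narrowest, a difference of -25.7 points (-29.2 to -22.2).

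**Figure D2:**
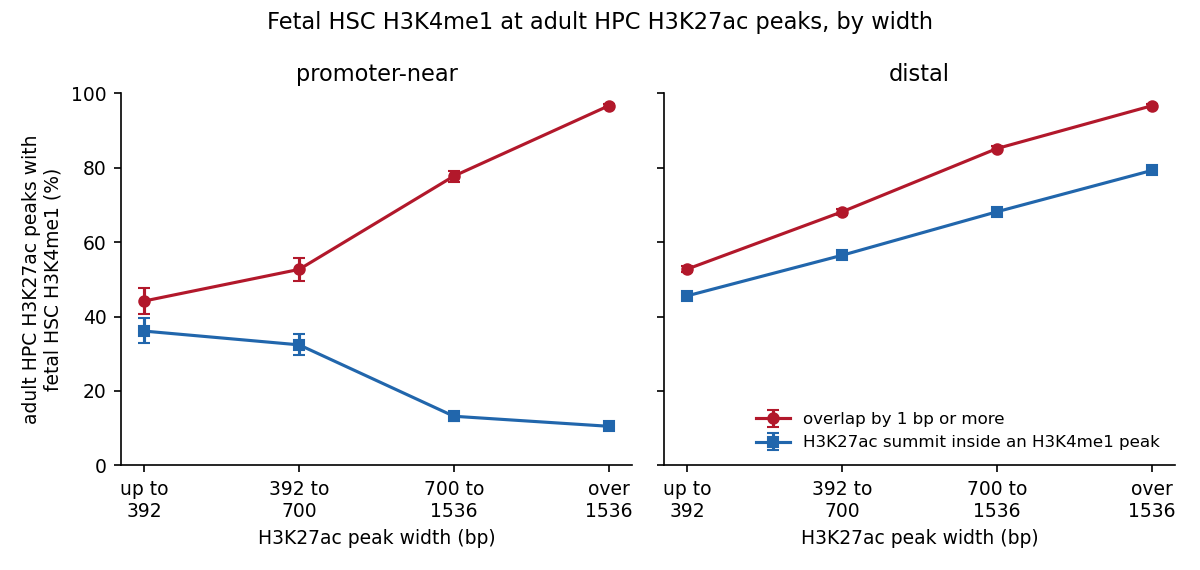
Share of adult HPC H3K27ac peaks with fetal HSC H3K4me1 by peak width, promoter-near (left) and distal (right), by overlap (circles) and by summit (squares), with 95% Wilson intervals. By overlap both places reach 96.7% in the widest quartile, while by summit distal peaks reach 79.3% and promoter-near peaks 10.5%.

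Distance from a start moved the share less than width did. It was 78.4% from 1001 to 10000 bp from a start, 71.8% from 10001 to 50000 bp, 68.8% from 50001 to 100000 bp and 69.6% beyond. Unmarked peaks were not all far from the mark, since 6562 of them (41.5%) lay within 1 kb of a fetal HSC H3K4me1 peak and their median distance to one was 1591 bp. For unmarked promoter-near peaks this median was 472 bp, against 1833 bp for unmarked distal peaks.

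The widest marked peaks were long stretches of acetylation. The widest of all spanned 33462 bp on chromosome 17 (84134804 to 84168265, mm10), 15659 bp from Zfp36l2, an RNA-binding protein that speeds mRNA decay, with fold 18.9 and 79.9% of its length under H3K4me1. Another of 23217 bp covered Hoxa9, a homeobox factor of stem and progenitor cells, with 23.2% under H3K4me1. The strongest marked distal peaks included 1 of 6619 bp on chromosome 2 (167772864 to 167779482), 82432 bp from Cebpb, a C/EBP factor of the granulocyte and macrophage lineages, with fold 50.7. The 3 strongest marked promoter-near peaks lay at Hjurp, a centromere chaperone (fold 24.9), Clk1, a splicing kinase (61.4), and Unk, an RNA-binding protein (58.6).

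The strongest unmarked promoter-near peaks were acetylated at both ages. Csf2ra, the alpha chain of the GM-CSF receptor, had the strongest, at fold 42.9 over 3611 bp, 2246 bp from the nearest fetal HSC H3K4me1 peak. Crlf2, the receptor for TSLP, had one of fold 37.2, Clcn4, a chloride and proton exchanger, one of 36.6, Map1lc3a, an autophagy protein, one of 32.6, and Zfp36l2 one of 31.8. H3c6, with fold 37.0, belongs to the histone genes, which have near-identical copies, and whether reads were shared between them was not tested. All 6 were acetylated in fetal HPC, and 5 carried H3K4me1 in adult HSC, Zfp36l2 being the exception. The widest unmarked peak, 7043 bp with fold 29.9, covered Il3ra, a subunit of the interleukin 3 receptor. The 6 strongest unmarked distal peaks lay at or near 4930467E23Rik, Ubash3b, BC107364, Gm40469 and Ear10, and 1 had no coding gene within 100 kb. They were 352 to 1389 bp wide with folds from 25.9 to 41.6 and were acetylated in fetal HPC, and 5 of the 6 had no H3K4me1 peak in any list. Ear10 has close paralogs in its family. The peaks near 4930467E23Rik and Gm40469 and the one without a gene lay on chromosome 8 between 19784511 and 20551000. Whether reads were shared between copies was not tested at any of the 6.

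H3K27ac of fetal HPC was a measure the choice of peaks did not use, and at distal peaks it went with the mark. Of the marked peaks 24801 (52.4%) overlapped fetal HPC H3K27ac, against 1408 (8.91%) of the unmarked peaks, a difference of 43.5 points (42.9 to 44.1). Promoter-near peaks were acetylated in fetal HPC at 84.0% if marked and at 34.1% if unmarked. Distal peaks were acetylated there at 43.5% if marked and at 5.57% if unmarked. Stronger peaks were also more often shared with fetal HPC, and the gap remained within each strength quartile of distal peaks. It was 92.0% for marked against 66.1% for unmarked peaks in the strongest quartile, and 17.5% against 1.69% in the weakest. At like widths of distal peaks, a split chosen with the data seen, as was the one by summit and place, the shares were 83.6% for marked and 36.7% for unmarked peaks in the widest quartile, and 17.7% and 2.17% in the narrowest. The size of the gap depended on the overlap asked for, since over all peaks it was 8.28 points with 50% coverage and 3.66 points by summit, each applied to both lists. With the mark called by summit and fetal acetylation by overlap, distal peaks had fetal acetylation at 45.4% with the mark and 14.6% without it (difference 30.8 points, 30.1 to 31.5). Promoter-near peaks then ran the other way, at 57.4% with the mark and 79.8% without it (difference -22.3 points, -24.8 to -19.9). Marked peaks without fetal acetylation numbered 22512, of which 20845 were distal, 56.5% of the marked distal peaks. At these sites H3K4me1 was called in fetal HSC, and H3K27ac was called in adult HPC and not in fetal HPC. Lack of fetal acetylation was more common at unmarked distal peaks, with 13168 of 13945 (94.4%). Over all autosomal distal peaks, 33.0% overlapped fetal HPC H3K27ac. Of the marked distal peaks, 82.5% lacked it in the weakest quartile and 8.03% in the strongest. The fetal HPC H3K27ac list covered 45.0 Mb, against 71.8 Mb for the adult one.

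The other H3K4me1 lists divided the unmarked peaks further. H3K4me1 of fetal HPC was at 97.0% of marked and 29.8% of unmarked peaks, that of adult HSC at 95.2% and 40.2%, and that of adult HPC at 97.5% and 55.2%. All 4 H3K4me1 lists covered 43627 of the marked peaks (92.2%). Of the 13945 unmarked distal peaks, 5684 (40.8%) had no H3K4me1 peak in any list, 4118 (29.5%) had one in an adult list alone and 4143 (29.7%) had one in fetal HPC. Among the 1850 unmarked promoter-near peaks, 875 (47.3%) had H3K4me1 in an adult list alone and 412 (22.3%) in none. The second K27 set, whose labels conflict between H3K27me3 and H3K27ac, overlapped at most 1.03% of the promoter-near or distal peaks of either kind.

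**Figure D3:**
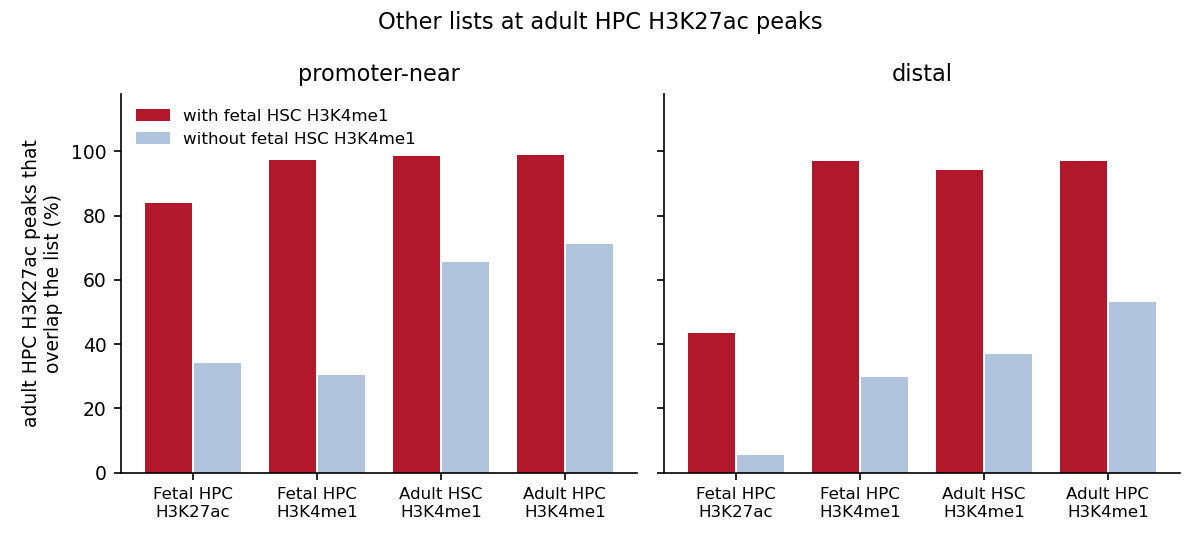
Share of marked (dark red) and unmarked (grey blue) adult HPC H3K27ac peaks that overlap 4 other lists, promoter-near (left) and distal (right). Distal fetal HPC H3K27ac shows the widest contrast as a ratio, at 43.5% of marked and 5.57% of unmarked peaks.

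Fetal stem cells marked fewer of these peaks than adult stem cells did, although their list held more peaks. The adult HSC list pooled 4 libraries and the fetal HSC list 3, so age cannot be told apart from the number of libraries. Fetal HSC H3K4me1 overlapped 75.0% of the adult HPC H3K27ac peaks, against 81.4% for adult HSC H3K4me1 (difference -6.47 points, paired interval -6.75 to -6.18). The difference was negative under each alternative tried, from -13.3 points with the fetal list cut to the length of the adult one to -2.95 with the mark within 1 kb. Peaks with the mark in fetal HSC and not in adult HSC numbered 2267, against 6347 with the reverse. Promoter-near, these counts were 171 and 1213, and distal 2096 and 5134. The acetylated peaks of adult and fetal HPC carried fetal HSC H3K4me1 at 75.0% of 63108 adult and 75.1% of 50858 fetal peaks (difference -0.136 points, -0.641 to 0.370). The direction turned with the overlap asked for, from -7.30 points by summit to 3.91 with the mark within 1 kb, so no order of the ages is read from it. These comparisons share lists, so they are not independent.

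Genes differed in the share of the peaks assigned to them that was marked. Each of 59589 peaks was assigned to the nearest protein-coding gene within 100 kb, and 75.4% of them were marked and 24.6% unmarked. A peak of a gene means a peak so assigned, and whether it acts on that gene was not tested. Of 13801 genes with a peak, 7591 (55.0%) had all peaks marked, 4892 (35.4%) had some and 1318 (9.55%) had none. The last count was 5381 with 50% coverage, 6022 by summit and 708 with the mark within 1 kb. Most genes with none, 1013, had a single peak, as did 5350 of the 13801 genes, and 94 of those with none had 3 or more. Among these was Col5a1, a fibrillar collagen chain, with 8 peaks and 0 marked, of which 3 carried H3K4me1 in adult HPC. It was singled out with its values known.

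The highest counts of unmarked peaks per gene were those of Aff3, a subunit of elongation complexes used in lymphoid cells, with 42 of 68 peaks, Snx29 with 40 of 97, Trappc9 with 31 of 74 and Wwox with 27 of 64. Msi2, an RNA-binding protein of stem cells, had 26 of 112, Cmip 25 of 72, Prex1, an exchange factor for Rac, 25 of 63 and Chst11, a chondroitin sulfotransferase, 24 of 43. Their unmarked peaks were mostly weak, with median folds from 2.57 to 2.84. The most marked peaks lay at Etv6, an ETS repressor needed by adult HSC, with 110 of 119, Arid1b, a chromatin remodeler subunit, with 95 of 108, Foxp1, a forkhead factor, with 89 of 99, and Msi2 with 86 of 112. Bcl11a, a factor of lymphoid and HSC function that also represses fetal globin, had 77 of 80, Cux1 77 of 100, Gse1 71 of 91 and Runx1 69 of 79. Both rankings are by count, so they favour genes with many peaks. Over all assigned peaks 75.4% were marked. Msi2, named in both rankings, had 76.8% marked, Cux1 77.0% and Gse1 78.0%, all near that share. The other genes with most unmarked peaks ran from 38.2% marked at Aff3 to 65.3% at Cmip. Of the 110 marked peaks of Etv6, 54 were acetylated in fetal HPC, and of the 42 unmarked peaks of Aff3 none was, while 19 had H3K4me1 in adult HPC.

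The 19 gene lists were set beside the share over all assigned peaks, 75.4%, and beside the share over all peaks in the same classes of place, width and strength as the list's own. They were described by counts and not tested. In 8 of the 19 lists the share was below that of all peaks.

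Genes of stem cell identity had the highest share among the lists with over 100 peaks. Of their 560 peaks 500 were marked (89.3%, 86.5 to 91.6), against 74.2% of all peaks in the same classes. Meis1, a homeobox cofactor, had 45 of 45 peaks marked, Hlf, a leucine zipper factor of HSC, 23 of 23, Mecom, a zinc finger factor needed by HSC, 33 of 34, and Fli1, an ETS factor, 31 of 33. These 4 genes were named after their values were seen. Of the 60 unmarked peaks 14 lay at Prdm16, a zinc finger factor of HSC with 48 peaks, and 11 at Erg, an ETS factor with 42. Runx1 had 10 of 79, Etv6 9 of 119 and Gata2, a factor of HSC and mast cells, 3 of 9. Without Etv6, the share over the list was 88.4%. The excess over all assigned peaks, 13.9 points (11.0 to 16.2), was 26.2 points by summit and 3.82 (-1.64 to 5.79) among the strongest 20000 peaks, where its interval reached 0. Of those 20000 peaks 93.1% were marked, which left little room for an excess. An unmarked peak of Gata2, on chromosome 6 (88164464 to 88167358), 26533 bp from the gene, had fold 8.02 and was acetylated in fetal HPC too. Cd34, a surface glycoprotein of HSC named after its values were seen, had an unmarked distal peak of fold 10.2. The strongest unmarked peaks of Prdm16, Erg, Runx1 and Etv6 had folds of 3.05, 3.69, 4.11 and 3.41.

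Erythroid and megakaryocyte genes had 83 of 91 peaks marked (91.2%, 83.6 to 95.5), and 6 of the 8 unmarked peaks lay at Vwf, von Willebrand factor. The other 2 lay at Itga2b, the platelet integrin, and Zfpm1, the GATA cofactor FOG1. The excess of the list over all assigned peaks was 15.8 points (8.19 to 20.1), and 3.24 (-10.9 to 6.18) among the strongest 20000 peaks. There too the room for an excess was small, with 93.1% of those 20000 peaks marked. Housekeeping genes had 76 of 88 marked (86.4%), chromatin regulators 95 of 114 (83.3%), and the fetal stem cell programme 42 of 50 (84.0%, 71.5 to 91.7). In that programme Igf2bp2, an RNA-binding protein, had 5 of 9 marked, and Hmga2, a DNA-bending protein of fetal stem cells, had 15 of 17. Of the 4 unmarked peaks of Igf2bp2, 2 were acetylated in fetal HPC.

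Myeloid and granulocyte genes were marked least among the lists with over 20 peaks. Of 200 peaks 127 were marked (63.5%, 56.6 to 69.9), against 75.2% of all peaks in the same classes. This deficit depended on the overlap asked for. It was -11.9 points against all assigned peaks (-18.8 to -5.56), but -2.15 with 50% coverage (-9.04 to 4.67), -2.40 by summit (-9.24 to 4.49), -6.23 among the strongest 20000 peaks (-18.8 to 0.698) and -6.02 with peaks within 1 kb merged (-15.3 to 1.79), where the intervals include 0. Cebpb had 18 of 38 peaks marked, Irf8, a factor of monocytes and dendritic cells, 17 of 29, Klf4, a factor of monocytes, 9 of 19, Fcnb, a ficolin of myeloid cells, 2 of 9, and Cebpa 12 of 18. Without Cebpb the share of the list was 67.3% (59.7 to 74.0), and the median gene had 66.7% of its peaks marked, against 95.5% in the stem cell list. Of the 73 unmarked myeloid peaks, 45 carried H3K4me1 in adult HPC, 28 in adult HSC and 26 in fetal HPC, and 3 were acetylated in fetal HPC.

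At Cebpb the 2 calls stood side by side. Its promoter peak (2739 bp, fold 17.0) was unmarked, with the nearest fetal HSC H3K4me1 peak 59 bp away, and it carried H3K4me1 in the 3 other lists. The strongest distal peak assigned to Cebpb, of fold 50.7, was marked over 49.8% of its length. The strongest unmarked peak of Irf8 lay 35406 bp from the gene on chromosome 8 (120792100 to 120794394), with fold 4.90 and 3250 bp from the mark. It carried H3K4me1 in the 3 other lists and was not acetylated in fetal HPC. The strongest unmarked peak of Cebpa lay 24013 bp from the gene on chromosome 7 (35145941 to 35146986), with fold 3.48, and was 938 bp from the mark. Its neighbours on chromosome 7, from 35141301 to 35141662 and from 35143564 to 35144071, were unmarked too and carried H3K4me1 only in adult HPC. Fcnb had its strongest unmarked peak, of fold 3.97, 4956 bp from the gene, with H3K4me1 only in adult HPC. Other myeloid genes went with the majority. Spi1, the factor PU.1, had 8 of 8 peaks marked, Gfi1, a repressor of granulocyte precursors, 6 of 6, and Csf1r, the M-CSF receptor, 5 of 6, all named after their values were seen.

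**Figure D4:**
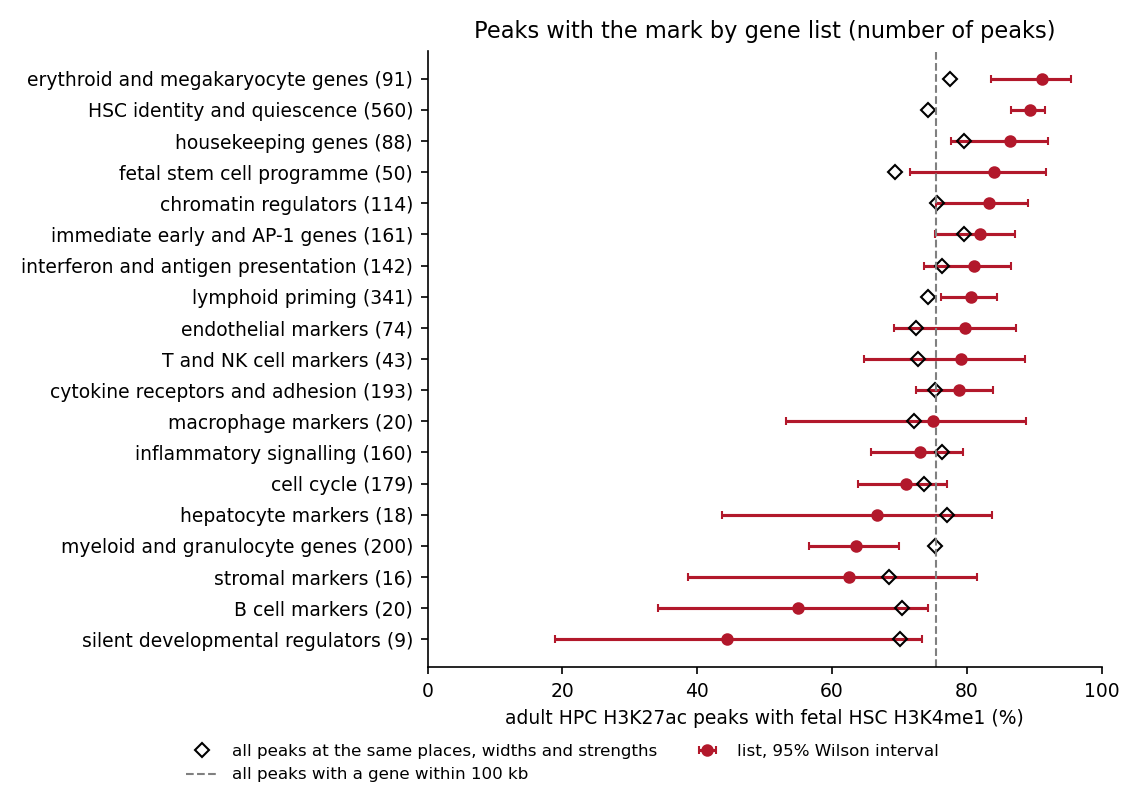
Share of adult HPC H3K27ac peaks with fetal HSC H3K4me1 in 19 gene lists (red points, 95% Wilson intervals, number of peaks in brackets), with the share over all peaks in the same classes of place, width and strength (diamonds) and over all assigned peaks (dashed line, 75.4%). Stem cell genes stand at 89.3% and myeloid genes at 63.5%.

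Lymphoid genes had 275 of 341 peaks marked (80.6%, 76.1 to 84.5), but without Bcl11a the share was 75.9%, close to that of all assigned peaks. Rora, a nuclear receptor of innate lymphoid cells, had 19 of 72 unmarked, Flt3, the cytokine receptor of multipotent progenitors, 10 of 25, Satb1, a chromatin organiser, 8 of 20, Dntt, the terminal transferase of lymphoid precursors, 6 of 15, and Ccr9, a chemokine receptor of thymus-seeding cells, 5 of 7. These lymphoid genes were named for their unmarked peaks. Of the 19 genes of the list with a peak, 6 had all peaks marked, 13 some and 0 none. A Dntt peak of fold 5.82 inside the gene (chromosome 19, 41038235 to 41040019) was unmarked and carried H3K4me1 in the 3 other lists. B cell markers had 11 of 20 marked (55.0%, 34.2 to 74.2), with 4 of 7 unmarked at Blk, a B cell kinase, and 2 of 3 at Igll1, a surrogate light chain. T and NK cell markers had 34 of 43 marked (79.1%, 64.8 to 88.6).

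Inflammatory genes had 117 of 160 marked (73.1%, 65.8 to 79.4), and 7 of their 30 promoter-near peaks were unmarked, against 15.1% of promoter-near peaks in all. Nlrp3, the inflammasome sensor, had 3 of 3 promoter-near peaks unmarked, the strongest with fold 6.73 and 4868 bp from the mark. Socs3, an inhibitor of cytokine signalling, had an unmarked promoter peak of fold 6.60, 439 bp from the mark. Il1r1, the interleukin 1 receptor, had 7 of 20 peaks unmarked, Tnfrsf1b, a TNF receptor, 6 of 15, and Tlr2, a receptor for bacterial lipoproteins, 5 of 9. These inflammatory genes were named for their unmarked peaks. Of the 24 genes of the list with a peak, 11 had all peaks marked, 12 some and 1 none. Interferon and antigen presentation genes had 115 of 142 marked (81.0%, 73.7 to 86.6). Nlrc5, the activator of MHC class I genes, had 6 of 9 unmarked, Irf1, an interferon regulatory factor, 5 of 19, Ifngr1, a chain of the interferon gamma receptor, 4 of 24, and Ciita, the activator of MHC class II genes, 3 of 4. They too were named for their unmarked peaks. Irf1 stood near the 24.6% unmarked over all assigned peaks, and Ifngr1 below it. Of the 26 genes of this list with a peak, 16 had all peaks marked, 10 some and 0 none.

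Immediate early genes had 132 of 161 marked (82.0%, 75.3 to 87.2), and cytokine receptors and adhesion genes 152 of 193 (78.8%, 72.5 to 83.9). Cell cycle genes had 127 of 179 (70.9%, 63.9 to 77.1), and without Cdk6 74.1%. Cdk6, the kinase partner of D cyclins, had 17 of 44 unmarked, Ccnd1, cyclin D1, 12 of 19, and Ccnd2, cyclin D2, 6 of 17. These cell cycle genes were named for their unmarked peaks. Of the 22 genes of the list with a peak, 10 had all peaks marked, 11 some and 1 none. Of the 12 at Ccnd1, 8 carried H3K4me1 in fetal HPC and 7 in adult HPC. Small lists gave wide intervals, with 12 of 18 hepatocyte (66.7%, 43.7 to 83.7), 59 of 74 endothelial (79.7%, 69.2 to 87.3), 15 of 20 macrophage (75.0%, 53.1 to 88.8) and 10 of 16 stromal peaks marked (62.5%, 38.6 to 81.5). Silent developmental regulators had 4 of 9 marked, and 4 of the 5 unmarked lay near Tbx5, a T-box factor of heart and limb. Whether cells of another kind contributed to any list was not tested.

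Promoters of the X chromosome were marked far less often than those of any autosome. Of 360 promoter-near peaks on X 123 were marked (34.2%, 29.5 to 39.2), against 86.5% of 11927 autosomal promoter-near peaks, a difference of -52.3 points (-57.1 to -47.3). Over the 19 autosomes the share ran from 82.5% on chromosome 14 to 90.2% on chromosome 19. This comparison was chosen after the values were seen. The deficit in points was smaller where the overlap asked for was longer or looser. It was -25.7 points with 50% coverage, -13.9 by summit and -24.0 with the mark within 1 kb. Under the stricter rules few promoter-near peaks of the whole genome were marked, 26.3% with 50% coverage and 14.6% by summit. These low shares limit a gap in points. By summit only 1.11% of X promoter-near peaks were marked, so as a ratio the deficit was larger by summit than by overlap. A deficit was also there in the other H3K4me1 lists, with 38.1% on X against 88.9% on autosomes in fetal HPC, 37.8% against 95.1% in adult HSC and 41.9% against 96.3% in adult HPC. Fetal HPC H3K27ac overlapped 76.1% of X and 76.5% of autosomal promoter-near peaks (difference -0.413 points, -5.14 to 3.77). All these peaks were chosen for their acetylation in adult HPC, so the shares do not tell how common acetylation is on X.

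The X peaks were somewhat narrower and weaker, with medians of 1394.5 bp and fold 6.70, against 1784 bp and 9.51 on autosomes. The gap was also there at like widths. In the widest quartile 82 of 152 X promoter-near peaks (53.9%) were marked, against 97.7% on autosomes, and in the next quartile 31 of 135 (23.0%), against 80.2%. Distal peaks differed less, with 56.1% marked on X and 72.7% on autosomes (difference -16.6 points, -21.7 to -11.5). At 1000 bp downstream of acetylated starts, fetal HSC H3K4me1 was called at 18.8% of 319 X starts, against 66.0% of 10494 autosomal starts. Of all coding genes 4.41% lie on X, against 1.14% of the adult HPC H3K27ac peaks, 1.12% of the fetal HPC H3K27ac peaks and 1.45% of the fetal HSC H3K4me1 peaks. Taf1 and Hprt, an enzyme of purine salvage, were among the unmarked X promoters, with folds of 22.1 and 17.0, and the Hprt peak lay 59 bp from the mark. The cause of the difference was not tested.

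**Figure D5:**
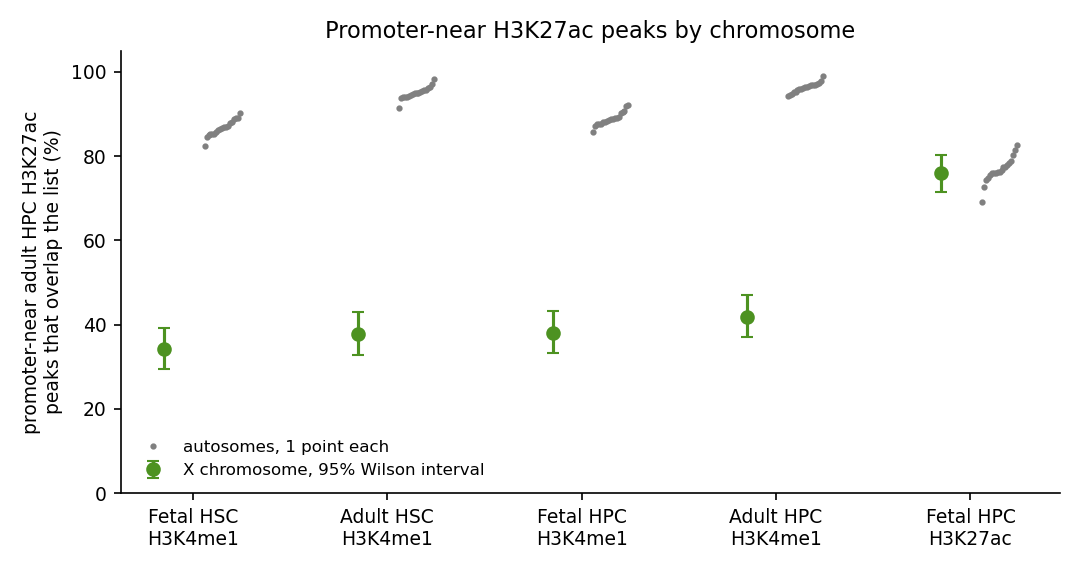
Share of promoter-near adult HPC H3K27ac peaks that overlap each of 5 lists, on the X chromosome (green, 95% Wilson interval) and on each of 19 autosomes (grey points). In the 4 H3K4me1 lists the X chromosome lies at 34.2% to 41.9%, below every autosome, while for fetal HPC H3K27ac it lies at 76.1%, within their range.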

How the data were processed

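Histone marks were mapped in 27 libraries, 3 of them input. Per the submitters' processing notes, the tools were Novoalign for alignment and MACS2 for peaks, on the mouse build mm10 (GRCm38). Tool versions, filter, threshold and use of the inputs were not given in the sources used here. For every group the authors deposited 1 filtered list, pooled over its libraries, so read depth is unknown. For each peak the authors gave a ratio or fold of signal over background, a −log10 p and a −log10 q as MACS2 writes these p-values, and the summit offset from the peak start, so the −log10 q and the offset are treated as deposited scores. These values were used within a list only.

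Overlaps were computed with Python 3.11.15, numpy 2.4.6 and pandas 2.3.3, and the overlap, distance and gene assignment steps were tested on simulated data. Promoter-near meant within 1000 bp of a listed start, known for 17491 of 21883 protein-coding genes of RefSeq GRCm38.p6, or of either gene end for the rest. The plan named the nearest start for gene assignment, and the nearest gene body within 100 kb was used instead. Shares carry Wilson and differences Newcombe 95% intervals, except that fetal and adult HSC, counted over the same peaks, carry a paired interval in place of the planned Newcombe one. The 19 gene lists hold 357 names, of which 355 were matched. Members and lists were chosen with earlier results of these data known.

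Named by rule were the 8 genes with most unmarked and the 8 with most marked peaks, up to 5 members of each list with most unmarked peaks, the 6 strongest unmarked and 3 strongest marked peaks of each place, and the 6 widest of each kind, not all of which are printed. The alternatives varied the overlap, the peak lists, the promoter and gene distances and the chromosomes.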

Additional observations from a re-analysis of the deposited data

How the results depend on the processing

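No paired analysis was possible because the libraries of each group were pooled into 1 list, and for the same reason no library could be left out. With fewer or longer overlaps the values moved as follows, with the value by overlap of 1 bp in the report. The share marked was 54.2% with 50% of the peak covered, 51.1% by summit, 85.4% with the mark within 1 kb, 93.1% among the strongest 20000 peaks, 79.3% for acetylated peaks with a −log10 q of at least 5, 68.2% with the fetal HSC list cut to the 143571 peaks of the adult HSC list, 69.6% for H3K4me1 peaks with a −log10 q of at least 5, 76.3% with peaks within 1 kb merged and 75.3% on autosomes. In the same order, promoter-near minus distal was -34.7, -45.4, 11.5, -0.947, 8.83, 13.7, 13.4, 15.3 and 13.8 points, and 13.3 with a 500 bp window and 11.2 with gene ends for all genes, an alternative chosen after seeing the data. The widest minus the narrowest quartile was 12.1, 2.17, 27.6, 16.8, 39.4, 48.8, 48.0 and 52.2 points, the autosomes staying within the interval. Marked minus unmarked for fetal HPC H3K27ac was 8.28, 3.66, 48.4, 28.4 and 45.1 points for the first 5 alternatives, 50.4 with peaks merged and 44.7 on autosomes. Fetal minus adult HSC was -13.0, -11.1, -2.95 and -3.90 points for the first 4, -13.3 with the list cut, -8.35 for H3K4me1 by −log10 q and -5.72 merged, so it was negative in all 9. Adult minus fetal HPC H3K27ac turned with the setting, at -5.89, -7.30, 3.91, 2.69, 0.500, -1.94, -1.56 and 3.89 points for the first 8. Genes with no marked peak numbered 5381, 6022, 708 and 650 under the first 4. The X chromosome minus autosomes was -25.7 points with 50% covered, -13.9 by summit, -24.0 within 1 kb, -58.7 with the list cut and -58.3 for H3K4me1 by −log10 q. Of the 8 gene lists whose interval left out the share of all peaks, 6 kept their sign in all 10 alternatives, though not all kept an interval without 0, as given for the stem cell, erythroid and myeloid lists. The exceptions in sign were that among the strongest 20000 peaks lymphoid genes stood at -4.95 and B cell markers at 6.82 points from all peaks. Read depth is unknown, and a site without a called peak may hold the mark.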

Other observations

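The variable region of the immunoglobulin heavy chain locus stood out when unmarked peaks were read along the genome, and it was chosen after its values were seen. The 183 V segments lie on chromosome 12 from 113572929 to 116009954 (mm10), and B cell precursors join 1 of them to the D and J segments. Of 101 adult HPC H3K27ac peaks in this region, 6 were marked by fetal HSC H3K4me1 (5.94%, 2.75 to 12.4), against 75.0% over the genome. H3K4me1 of adult HPC overlapped 97 of the 101 peaks, that of fetal HPC 56 and that of adult HSC 36, and H3K27ac of fetal HPC overlapped 16. The strongest peak (chromosome 12, 114378319 to 114379829, fold 12.2) was marked, as was the next of fold 9.08, and both were acetylated in fetal HPC. The third, of fold 6.88 (115623222 to 115623946), lay 183196 bp from the nearest fetal HSC H3K4me1 peak and carried H3K4me1 in adult HPC alone.

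The peaks were uneven along the region. Divided at its midpoint, the region held 92 of them on the side far from the D and J segments, of which 5 were marked, and 9 on the near side, of which 1 was marked. Of the V segments, 47 lay in or touched an acetylated peak, namely 35 of 92 in family 1 and 12 of 16 in family 8. The adult second K27 set had 52 peaks of its own on the near side and 0 on the far side. Segments of a family are similar in sequence, so reads could be shared between them, and whether they were was not tested. Markers of B cells were acetylated at promoters at 5 of 10 genes in adult HPC, and their part in these peaks was not tested.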
